A study of Homo sapiens with 6 samples.

Results

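Double knockout (DKO) cells, edited in both genes of the kinases MRCKα and MRCKβ, were compared with cells edited in only one of them. Genes entered the comparison when they had 50 or more expected counts in both DKO libraries or in both single knockout libraries, which left 11001 of the 17064 genes listed. Of these, 3787 genes (34.4%) had both DKO values beyond both single knockout values, with 2102 above and 1685 below. They were picked on FPKM, which divides the reads of a gene by its transcript length and by the total of the library. If the order of the 4 values were arbitrary, a share close to 34.4% would meet the rule. The number 3787 is therefore not a count of genes altered in DKO.

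All libraries came from MDA-MB-231, an established human triple-negative breast cancer line with mesenchymal-like features, transduced with the lentiviral vector lentiCRISPRv2. The samples on the DKO side were DKO 1 and DKO 2, labelled CDC42BPA/CDC42BPB Double Knockout and made from different guide sets. On the other side were 1 library labelled CDC42BPA Knockout (MRCKα KO) and 1 labelled CDC42BPB Knockout (MRCKβ KO). The 2 vector control libraries, from cells that received the vector without a guide, are given beside the results as a reference. The cells were selected as stably transduced populations and no clones were picked, so a library can hold cells with different edits and unedited cells. By Western blot, the paper reports very efficient loss of the targeted proteins in such populations. Each single knockout had 1 library, and the difference between MRCKα KO and MRCKβ KO counted as the spread on that side. Nothing in the labels ties a replicate number to a separate culture, so p-values measure the spread between these libraries.

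MRCKα and MRCKβ are serine/threonine kinases that bind the GTPase CDC42 and act on the myosin light chain, its phosphatase and LIM kinases, which puts them next to the ROCK kinases in the control of actomyosin contraction. Their kinase domains are closely related, so each can act on substrates of the other. MDA-MB-231 cells are known for high activity of NF-κB, a transcription factor family that drives chemokines, cytokines and its own inhibitors.

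The libraries numbered 2 stood apart from those numbered 1. The spread was measured as the SD of the difference in log2(FPKM + 0.1) across the 11001 genes. It was 0.24 between DKO 1 and either single knockout, 0.28 between the single knockouts, 0.32 between DKO 1 and DKO 2, and 0.36 to 0.39 between DKO 2 and the single knockouts. Thus DKO 1 lay closer to both single knockouts than to DKO 2. Both single knockouts carry the number 1. The vector libraries came from separate transductions and the DKO libraries from different guide sets, and no source used here says whether a number also marks a shared day or batch. Totals of expected counts ranged from 10349898 to 10657857 over the 6 libraries, and 12911 to 13038 genes had 10 or more counts.

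**Figure D1:**
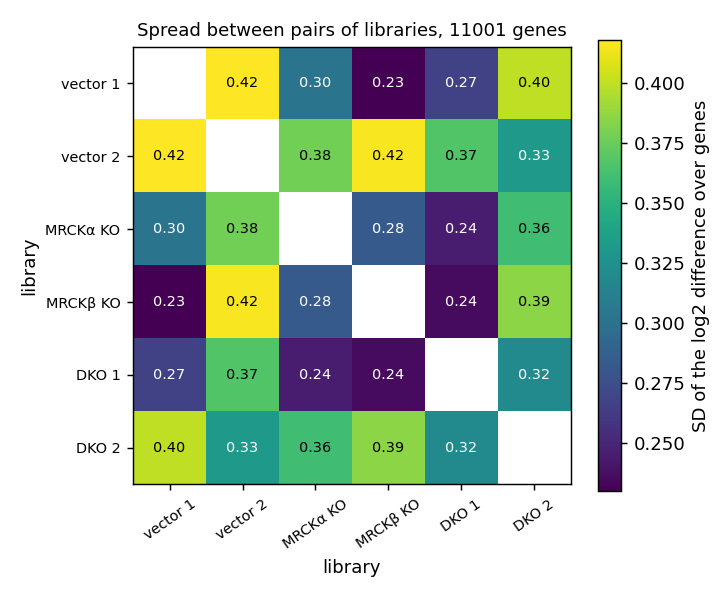
Spread between each pair of the 6 libraries, as the SD of the log2(FPKM + 0.1) difference over 11001 genes; darker cells are closer libraries. DKO 1 is nearest to MRCKβ KO (0.24) and MRCKα KO (0.24), and DKO 2 is 0.32 from DKO 1.

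The labelled cell line was checked against marker genes. All 8 mesenchymal-like markers were detected, led by the intermediate filament gene VIM with an FPKM of 1532 to 2052, although SPARC reached only 1.22. Summed FPKM of the 12 luminal breast markers was 316 to 431, largely from KRT8, KRT18 and ERBB2. Fibroblast markers summed to 2.44 to 5.36, endothelial markers to 2.22 to 3.78 and markers of the virus producer line HEK293T to 0.36 to 1.16.

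The protease gene CTSS had the largest gap among the genes above both single knockouts, and the chemokine genes CXCL1 and CXCL2 came next. The transcription factor gene EGR1 and the cytokine gene IL1A were among the 15 largest. CTSS, CXCL2 and IL1A reached the count minimum through the DKO side alone. Readthrough genes had the largest gaps below, and 16 of 29 genes of cholesterol and fatty acid synthesis lay below (55.2%, against 15.3% of all genes). That list was chosen with earlier results of these samples known. Most differences were small. The gap, defined as the ratio of the nearest values of the opposite sides, had a median of 1.055-fold above and 1.053-fold below. The opposite sides were at least 25% apart in 95 genes above (0.864% of the 11001) and 51 below (0.464%), and at least 50% apart in 14 (0.127%) and 8 (0.0727%).

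No gene passed the test of this comparison. edgeR's quasi-likelihood test on rounded expected counts, fitted to the 4 knockout libraries, called 0 of 13149 genes (0.0%) after Benjamini-Hochberg adjustment at 0.05. At an unadjusted p under 0.05 there were 314 genes higher in DKO (2.39%) and 278 lower (2.11%), together 4.5% of those tested. That share is no larger than a cutoff of 0.05 lets through when the sides do not differ. DESeq2 called 7 of 16807 genes, named here after their values were seen. CXCL1, BIRC3, IGFN1 and the readthrough gene DNAJC25-GNG10 were higher, while MTPN and the readthrough genes RPS10-NUDT3 and C7orf55-LUC7L2 were lower. limma called 1 gene on log2(FPKM + 0.1), RPS10-NUDT3, and 0 on log2(FPKM + 1). The edgeR adjusted p was 0.107 for RPS10-NUDT3, 0.133 for C7orf55-LUC7L2 and 0.951 for every other gene whose edgeR estimate is given in what follows.

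Single DKO libraries gave different counts. DKO 1 alone lay above both single knockouts in 3294 genes (29.9%) and below in 3019 (27.4%), and DKO 2 alone in 4204 (38.2%) and 3608 (32.8%). DKO 2 was the further of the pair in 68.4% of the genes above and 66.6% of those below. With TMM-normalized CPM (counts scaled to the normalized library total, without length) in place of FPKM, 1945 genes were above and 1879 below, so the counts of both sides were closer together. Of the members, 1803 of the 2102 stayed above (85.8%) and 1557 of the 1685 stayed below (92.4%).

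At the edges of the rule, IFT43 had 50 and 63 counts in the single knockouts and just entered, and MDP1 with 49.4 counts in DKO 1 just did not. TFRC was above by the smallest gap, with an FPKM of 97.67 in DKO 1 against 97.64 in MRCKα KO. TSTA3 was below by the smallest, with 34.99 in DKO 1 against 35 in MRCKα KO. Of the genes above, 63 had reached 50 counts through the DKO side alone, and of those below, 65 through the single knockouts alone, so the count minimum itself helped to set their side. Among the 15 largest gaps above, such genes are CTSS, CXCL2, CD33, HRNR, IL1A and SWSAP1. Among the 15 largest below, they are RPS10-NUDT3, C7orf55-LUC7L2, C8orf44-SGK3, KBTBD3, ANKRD34A, PSG4, COL9A2 and GRAMD1C.

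**Figure D2:**
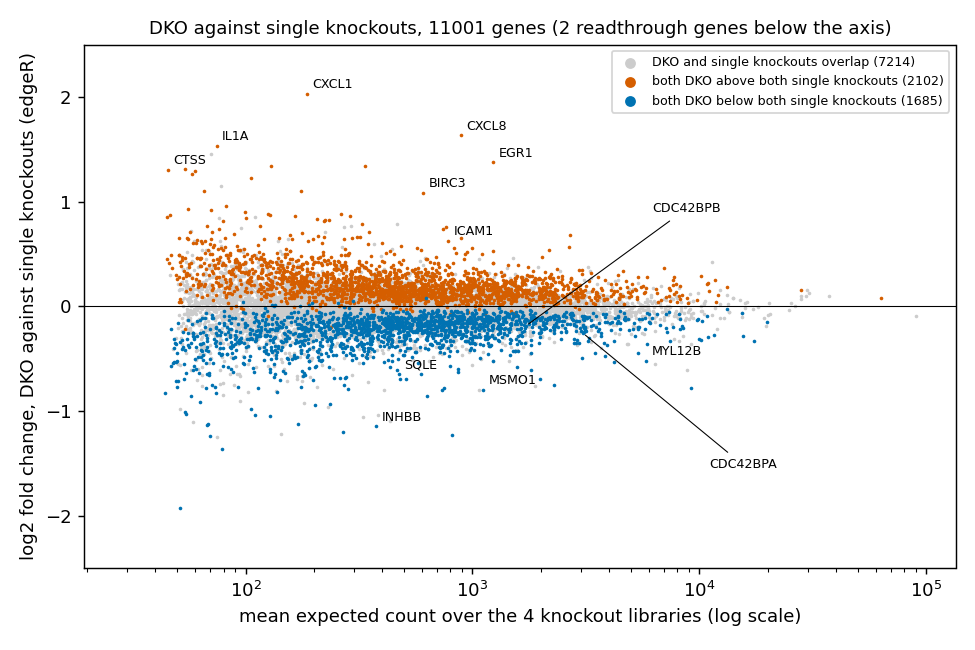
Log2 fold change of DKO against single knockouts (edgeR) against the mean expected count of the 4 knockout libraries (log axis), 1 point per gene for 11001 genes. The 2102 genes above and the 1685 below both single knockouts are coloured, and 2 readthrough genes fall below the axis.

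The targeted genes kept their RNA. MRCKα is encoded by CDC42BPA (gene ID 8476), whose FPKM was 28.3 in DKO 1 and 26.1 in DKO 2, against 29.4 in MRCKα KO and 34.9 in MRCKβ KO. Vector 1 was at 36.4 and vector 2 at 23.3. MRCKβ is encoded by CDC42BPB (gene ID 9578), whose FPKM was 23.4 in DKO 1 and 23.5 in DKO 2, against 27.3 in MRCKα KO and 25.7 in MRCKβ KO, with 30.3 and 29.1 in vector. Both DKO values lay below both single knockouts for each gene, and for CDC42BPB the single knockouts lay below vector as well. The log2 fold change of DKO against the single knockouts was -0.25 for CDC42BPA (standard error 0.13, edgeR adjusted p = 0.951) and -0.19 for CDC42BPB (standard error 0.10, edgeR adjusted p = 0.951). Without MRCKβ KO the value for CDC42BPA came to -0.09, and without MRCKα KO to -0.40. No library lacked the RNA of an edited gene, and these levels do not check the labels. A gene edited in its coding sequence can still be transcribed. The paper checked the knockouts by Western blot and reports very efficient loss of both proteins.

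Of the 22 genes in the list of MRCK and ROCK kinases, substrates and regulators, 4 lay above (18.2%, against 19.1% of all genes) and 8 below (36.4%, against 15.3%). Their median log2 fold change was -0.13, beside -0.0047 for all genes. The 8 below include both targeted genes. ROCK2, the kinase next in kind to MRCK, was at 26.5 in DKO 1 and 26.3 in DKO 2, above 22.6 in MRCKα KO and 23.7 in MRCKβ KO. Vector had 27.5 and 27.9, so it was the single knockouts that were low. ROCK1 overlapped, with 32.1 and 22.0 in DKO against 36.7 and 29.7.

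PPP1R12B, a targeting subunit of myosin phosphatase, was above with 2.42 and 2.41 in DKO 1 and DKO 2 against 1.79 and 1.78 in MRCKα KO and MRCKβ KO. Its gap was 1.35-fold in FPKM but 1.10-fold in CPM. The transcript length listed for it was shorter in DKO, at 9412 and 8836 against 10171 and 10652. Its edgeR log2 fold change was 0.23 (standard error 0.16). CFL2, a muscle-type cofilin that severs actin filaments, was below with 32.0 and 32.3 against 37.6 and 37.2. The widely expressed cofilin gene CFL1 had 961 and 976 in DKO against 833 and 948, a gap of only 1.01-fold.

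The regulatory light chain genes MYL12A and MYL12B, near-identical copies whose reads may be split between them, were low mainly in DKO 2. MYL12B had an FPKM of 584 in DKO 1 and 348 in DKO 2, against 701 in MRCKα KO and 616 in MRCKβ KO, and 657 and 507 in vector. MYL12A had 416 in DKO 1 and 225 in DKO 2, against 421 and 485, and 382 and 343 in vector. DKO 1 was near the lower single knockout in each case. The log2 fold change of MYL12B was -0.52 (standard error 0.21), and it was the one list member lower at an unadjusted p under 0.05. The one that was higher was LURAP1, an adaptor that links MRCK to MYO18A, but with an FPKM of at most 0.93 it did not reach 50 counts.

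LIMK1, a LIM kinase that inactivates cofilin, lay below at 20.5 and 17.7 against 21.1 and 24.3. CDC42, the GTPase that recruits MRCK, lay below at 123 in both DKO libraries against 137 and 132. The myosin heavy chain gene MYH9 had 140.5 and 155.4 in DKO against 125.7 and 140.3, a gap of only 1.002-fold, and its sides overlapped in CPM. MYL9 had 108 and 104 against 112 and 115. RHOA, RAC1, LIMK2, PPP1R12A, PPP1CB, MYH10, SSH1, SSH2 and MYO18A overlapped between the sides. CDC42BPG, the third MRCK gene, was at most 0.37 in any library and did not reach the count minimum.

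NF-κB and inflammation genes were mostly above. Of 39 genes in the filter, 23 lay above both single knockouts (59.0%, against 19.1% of all genes) and 1 below (2.56%, against 15.3%). The median log2 fold change was 0.36. In edgeR's test 17 of 42 genes were higher at an unadjusted p under 0.05, beside 2.39% of all genes, and 0 were lower, and 0 passed after adjustment. This list was drawn up with results of these samples known, so its direction is not independent evidence. Relative to the mean of the single knockouts on log2(FPKM + 0.1), the list's median was 0.27 in DKO 1, 0.46 in DKO 2, -0.18 in vector 1 and 0.08 in vector 2. The list was thus higher in either DKO library alone, and vector 2 also lay slightly above the single knockouts.

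CXCL1 and CXCL2 encode neutrophil-attracting chemokines from neighbouring, similar genes, so reads may be shared between them. CXCL1 had an FPKM of 12.0 in DKO 1 and 37.0 in DKO 2, against 5.52 in MRCKα KO and 6.29 in MRCKβ KO, and 2.21 and 6.52 in vector. Both DKO libraries were above all others, DKO 2 by far the most. The mean was 24.5 ± 17.7 (SD, n = 2) in DKO and the log2 fold change was 2.03 (standard error 0.47, edgeR adjusted p = 0.951). Without DKO 2 the log2 fold change was 1.01, and without DKO 1 it was 2.63. CXCL2 had 6.11 in DKO 1 and 7.95 in DKO 2, against 3.12 and 3.38, and 0.98 and 2.06 in vector. Its DKO libraries lay close together, and the log2 fold change was 1.10 (standard error 0.29) and of 0.91 without DKO 2.

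IL1A, the gene of the alarm cytokine interleukin-1α, had 2.10 in DKO 1 and 5.09 in DKO 2, against 1.34 in MRCKα KO and 1.11 in MRCKβ KO, and 0.70 and 1.70 in vector. Its log2 fold change of 1.54 (standard error 0.43) came to 0.77 without DKO 2. Vector 2 lay between the single knockouts and DKO 1. The promoters of these genes and of EGR1 are shown because they had the largest gaps in the NF-κB and immediate early lists. Each is the stretch of 250 bases before the gene's start, from RefSeq on GRCh38.p14, 5′ to 3′ on the strand of the gene. CXCL1 spans chr4:73869143-73869392 (plus strand), CXCL2 chr4:74099196-74099445 (minus strand), IL1A chr2:112784494-112784743 (minus strand) and EGR1 chr5:138465229-138465478 (plus strand). Capitals mark a κB motif in CXCL1 and CXCL2, an AP-1 motif (TGANTCA) in IL1A and a pair of CArG motifs in EGR1.
CXCL1: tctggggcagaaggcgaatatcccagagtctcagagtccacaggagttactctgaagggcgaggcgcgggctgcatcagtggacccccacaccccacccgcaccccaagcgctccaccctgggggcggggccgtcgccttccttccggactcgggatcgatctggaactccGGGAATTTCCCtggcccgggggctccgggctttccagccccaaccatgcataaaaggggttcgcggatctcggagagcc
CXCL2: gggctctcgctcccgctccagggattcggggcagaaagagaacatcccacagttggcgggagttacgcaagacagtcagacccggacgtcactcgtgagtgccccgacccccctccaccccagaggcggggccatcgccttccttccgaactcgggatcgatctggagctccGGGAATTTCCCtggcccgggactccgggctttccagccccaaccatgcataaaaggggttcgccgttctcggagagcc
IL1A: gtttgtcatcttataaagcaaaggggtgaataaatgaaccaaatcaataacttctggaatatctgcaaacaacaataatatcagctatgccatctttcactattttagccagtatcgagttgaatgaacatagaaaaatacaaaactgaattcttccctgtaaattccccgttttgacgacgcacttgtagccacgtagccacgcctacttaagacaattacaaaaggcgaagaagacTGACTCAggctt
EGR1: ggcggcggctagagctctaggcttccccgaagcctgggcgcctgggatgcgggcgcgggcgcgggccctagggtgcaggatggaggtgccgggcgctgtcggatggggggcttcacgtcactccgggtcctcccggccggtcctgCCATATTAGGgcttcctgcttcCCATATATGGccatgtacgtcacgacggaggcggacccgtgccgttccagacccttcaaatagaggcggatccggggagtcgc

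CXCL1 and CXCL2 shared the κB letters at almost the same place, where matches on both strands overlap, from 79 to 69 bases before the start in CXCL1 and from 78 to 68 in CXCL2. The AP-1 match of IL1A lay 12 to 6 bases before the start. A κB motif stood in 12 of the 33 NF-κB list promoters with an entry, beside 9.96% of 35116 promoters, and also in 5 of 22 promoters of the cholesterol list described further on. Of the 33 NF-κB list promoters, 3 held AP-1, beside 6.57% of all. A TEAD motif (CATTCC) stood in 1 of them, beside 11.9%, and a CRE motif (TGACGTCA) in 1, beside 1.65%. Both strands were searched, and a match describes letters, not binding.

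The list members described from here to RELB, TLR2 and NFKBIA were picked with their values in view. ICAM1, an adhesion molecule for leukocytes, had an FPKM of 25.6 in DKO 1 and 29.9 in DKO 2, against 17.1 in MRCKα KO and 18.5 in MRCKβ KO, and 9.21 and 11.7 in vector. The 3 kinds of cells did not overlap for ICAM1, with vector lowest and DKO highest. DKO averaged 27.8 ± 3.03 and the single knockouts 17.8 ± 0.948 (SD, n = 2 each), and the edgeR estimate on the log2 scale was 0.63 (standard error 0.12, adjusted p = 0.951). TNFAIP3, a ubiquitin-editing inhibitor of NF-κB, had 5.41 and 8.56 in DKO against 4.32 and 3.11, and 1.74 and 2.47 in vector, again in the same order.

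CXCL8, the gene of interleukin-8, had 36.5 in DKO 1 and 115 in DKO 2, against 28.5 in MRCKα KO and 19.6 in MRCKβ KO, and 7.31 and 17.3 in vector. BIRC3, an inhibitor of apoptosis, had 11.3 and 18.6 in DKO against 7.93 and 6.04, and 4.31 and 10.1 in vector. For CXCL8 every knockout library lay above vector, while for BIRC3 vector 2 exceeded both single knockouts. IL1B, the gene of interleukin-1β, had 9.08 and 14.8 in DKO against 2.60 and 6.71, so the single knockouts were far apart, and vector 2 at 8.98 was level with DKO 1. CSF2 behaved alike, with 7.77 and 12.5 in DKO against 1.87 and 6.43.

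Among the NF-κB subunits, RELB had 9.23 and 16.0 in DKO against 7.10 in both single knockouts, and NFKB2 had 26.6 and 34.1 against 20.7 and 22.8. RELA had 59.8 and 63.7 against 51.9 and 53.1, REL had 3.06 and 3.93 against 2.94 and 2.63, and NFKB1 overlapped. The signal adaptor gene TRAF1 had 5.40 and 7.74 against 3.25 and 3.95. IL6 was at 8.19 and 8.71 against 6.41 and 5.69. IL11 was above at 102 and 111 against 85.5 and 79.4, but vector 2 had 139. The receptor gene TLR2 was the one member below, at 1.27 and 1.12 against 1.4 and 1.37, and the inhibitor gene NFKBIA overlapped.

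CTSS, a lysosomal cysteine protease of antigen-presenting cells, had the largest gap above, 2.00-fold. Its FPKM was 1.4 in DKO 1 and 1.63 in DKO 2, against 0.70 in MRCKα KO and 0.50 in MRCKβ KO, and vector 2 was higher than all of them at 2.02. CD33, a receptor of myeloid cells, had 3.79 and 6.56 in DKO against 2.12 and 1.73, and 2.55 and 4.07 in vector. Its gap of 1.79-fold came to 1.43-fold in CPM. Of the 6 white blood cell markers, 0 of those with 50 counts lay above and 0 below. Their summed FPKM was 82.1 in DKO 1 and 99.2 in DKO 2, against 74.7 and 90.4 in the single knockouts, mostly from CD68. PTPRC, under the count minimum, was lower in DKO at 0.48 and 0.29 against 1.24 and 0.94, CD3E was listed at 0 in all 4 libraries and CD79A was at most 0.09. In bulk RNA, more cells of a kind and more RNA per cell cannot be told apart.

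**Figure D3:**
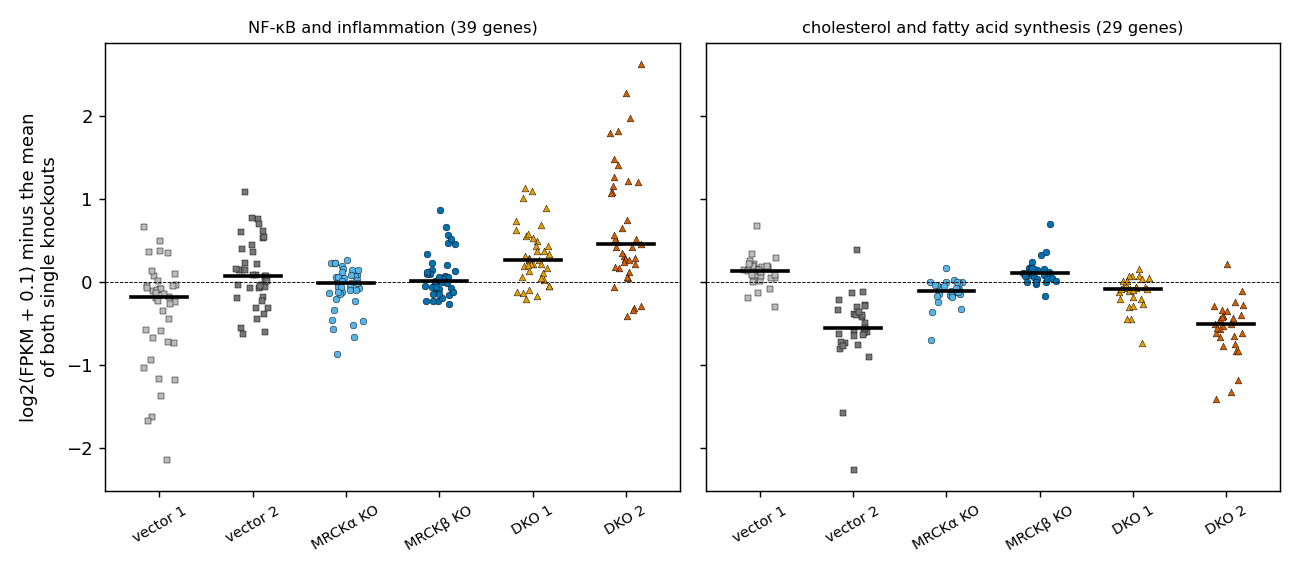
Log2(FPKM + 0.1) of each gene minus the mean of both single knockouts, in all 6 libraries, for 39 NF-κB and inflammation genes (left) and 29 cholesterol and fatty acid synthesis genes (right), 1 point per gene with the median as a bar. The left medians are -0.18 and 0.08 in vector 1 and 2 and 0.27 and 0.46 in DKO 1 and 2; the right ones are 0.13, -0.56, -0.08 and -0.51.

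Immediate early genes, the first to respond to growth signals, lay above in 7 of 21 (33.3%, against 19.1% of all genes) and below in 3 (14.3%, against 15.3%), with a median log2 fold change of 0.14. EGR1, a zinc finger transcription factor, had an FPKM of 37.5 in DKO 1 and 70.8 in DKO 2, against 23.2 in MRCKα KO and 18.1 in MRCKβ KO, and 12.5 and 6.81 in vector. DKO, single knockouts and vector did not overlap. The DKO mean was 54.2 ± 23.6 and the single knockout mean 20.7 ± 3.62 (SD, n = 2 each). The log2 fold change of EGR1 was 1.38 (standard error 0.27, edgeR adjusted p = 0.951). Without DKO 2 the value for EGR1 was 0.85. Its CArG motifs, shown in the promoter above, lay 105 to 96 and 83 to 74 bases before the start. CArG stood in 2 of 17 immediate early promoters with an entry, beside 1.16% of all, and CRE in 3 of 17, beside 1.65%.

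IER2, an early response gene, had 52.7 and 66.3 in DKO against 38.7 and 44.6, and 43.3 and 36.3 in vector. ZFP36, which destabilizes cytokine mRNAs, had 16.1 and 17.3 against 11.3 and 13.9, and 10.9 and 12.1 in vector. JUN, a subunit of AP-1, had 54.8 and 78.9 against 46.8 and 48.6. The list was not uniformly higher. IER5 was below at 45.2 and 45.0 against 49.43 and 49.96, and ATF3, FOSB, NR4A1 and DUSP1 overlapped. JUN, IER5 and the overlapping genes were picked after their values were seen.

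Feedback genes of the ERK pathway lay above in 4 of 18 and below in 4 (22.2% each, near the 19.1% and 15.3% of all genes). SPRY1, an inhibitor of receptor tyrosine kinase signalling, had 7.76 and 5.69 in DKO against 8.77 and 12.4, and 12.6 and 3.79 in vector. IER3 had 600 and 620 against 395 and 543, and 449 and 372 in vector. SRF and MRTF targets, the genes that read out actin, were 3 above and 3 below of 21 (14.3% each). TPM1, a tropomyosin, had 75.9 and 59.0 against 79.2 and 87.5, and CNN3, a calponin, had 221 and 205 against 254 and 235. The median log2 fold change of that list was -0.0048, beside -0.0047 for all genes.

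Cholesterol and fatty acid synthesis genes were below both single knockouts in 16 of 29 (55.2%, against 15.3% of all genes) and above in 1 (3.45%), which was PMVK. The median log2 fold change was -0.30. In edgeR's test 9 of 29 genes were lower at an unadjusted p under 0.05, beside 2.11% of all genes, and 0 passed after adjustment. The cholesterol list, too, was chosen with earlier results of these samples known, so its direction is not independent evidence. The difference sat mainly in DKO 2. Against the mean of the single knockouts, the list's median was -0.08 in DKO 1 and -0.51 in DKO 2, and it was 0.13 in vector 1 and -0.56 in vector 2. Vector 2 was therefore as low as DKO 2. DKO 1 alone was below both single knockouts in 16 of the 29 genes, beside 27.4% of all genes. DKO 2 alone was below in 27 of them, beside 32.8% of all genes.

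SQLE, squalene monooxygenase, had an FPKM of 13.5 in DKO 1 and 10.25 in DKO 2, against 17.95 in MRCKα KO and 18.7 in MRCKβ KO, and 20.8 and 12.2 in vector. Its log2 fold change was -0.64 (standard error 0.15, edgeR adjusted p = 0.951) and -0.45 without DKO 2. MSMO1, a sterol methyl oxidase, had 44.2 in DKO 1 and 26.4 in DKO 2, against 54.7 and 66.4, and 68.8 and 36.1 in vector. HMGCS1, which makes HMG-CoA for the mevalonate pathway, had 19.96 and 13.83 against 23.33 and 26.02, and 24.8 and 13.1 in vector. In all 3 genes vector 2 lay below both single knockouts. A sterol element motif (TCACNCCAC), added after values were seen, stood in 1 of 22 promoters of the list with an entry, beside 0.883% of all.

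**Figure D4:**
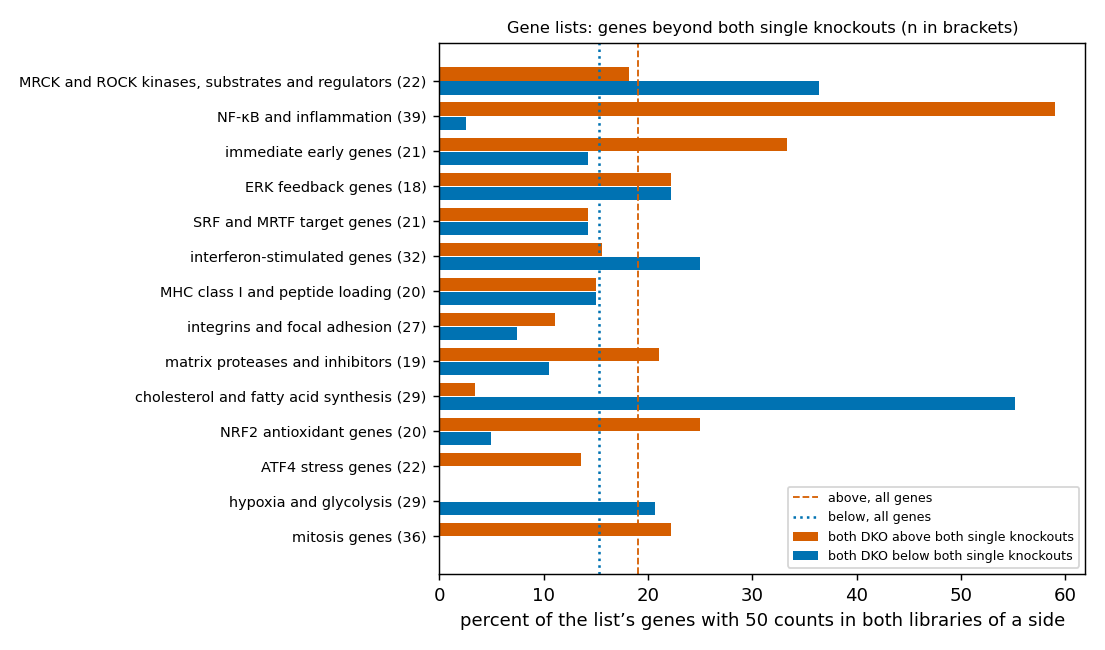
Percent of the genes in each of 14 lists with both DKO values above (orange) or below (blue) both single knockouts; the dashed and dotted lines give 19.1% and 15.3% for all 11001 genes. NF-κB and inflammation reached 59.0% above and cholesterol and fatty acid synthesis 55.2% below. The lists were chosen with earlier results of these data known.

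The other lists lay closer to the shares of all genes, which were 19.1% above and 15.3% below. Interferon-stimulated genes were above in 5 and below in 8 of 32, with a median of -0.10. Their share above was lower than that of all genes, and their share below was higher. ISG15, a ubiquitin-like modifier, had 69.7 and 62.7 in DKO against 53.5 and 53.7, but vector 2 had 80.7. MHC class I and peptide loading genes were above in 3 and below in 3 of 20, both shares under those of all genes. TAP1, the peptide transporter, had 23.0 and 21.3 against 18.2 and 18.6, while B2M, the light chain, had 421 and 392 against 468 and 471.

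Integrin and focal adhesion genes were above in 3 and below in 2 of 27 (11.1% and 7.41%, against 19.1% and 15.3% of all genes). CAV1, the caveolar coat protein, was below with 195 and 166 in DKO against 213 and 245, and 281 and 178 in vector. Matrix proteases and inhibitors were above in 4 and below in 2 of 19 (21.1% and 10.5%). PLAUR, the urokinase receptor, had 55.5 in DKO 1 and 86.8 in DKO 2, against 39.4 and 44.8, and 47.3 and 105 in vector. Vector 2 thus exceeded both DKO libraries. ADAMTS12 had 22.92 and 14.04 against 24.57 and 25.30.

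Hypoxia and glycolysis genes were above in 0 and below in 6 of 29 (0.0% and 20.7%, against 19.1% and 15.3% of all genes). Their median was -0.12. LDHA, lactate dehydrogenase A, had 697 and 621 in DKO against 769 and 878, and 869 and 807 in vector, so both DKO libraries were lowest. BNIP3, a mitophagy receptor, had 85.4 and 59.8 against 89.1 and 126, and 111 and 77.3 in vector. Mitosis genes were above in 8 (22.2%) and below in 0 of 36, with a median of 0.06. PLK1, a mitotic kinase, had 91.2 and 97.6 against 85.2 and 79.0, but vector 2 had 99.8.

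NRF2 antioxidant genes were above in 5 and below in 1 of 20, with a median of 0.0066. Their share above was higher than the 19.1% of all genes, and their share below was lower than 15.3%. GCLM, a subunit of the enzyme that starts glutathione synthesis, had 19.1 in both DKO libraries against 16.2 and 14.4, and 39.6 in vector 2. ATF4 stress genes were above in 3 and below in 0 of 22 (13.6% and 0.0%), both under the shares of all genes, with a median of -0.05. SLC7A5, an amino acid transporter, had 185 and 180 against 147 and 162, and 179 and 180 in vector.

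Other genes with large gaps above fell outside these lists. PARD6G, a polarity protein that binds CDC42, had 3.58 in DKO 1 and 3.63 in DKO 2, against 1.95 in MRCKα KO and 2.24 in MRCKβ KO, and 3.10 and 3.31 in vector. Its single knockouts were the low libraries and both vector values were near DKO. The log2 fold change was 0.77 (standard error 0.21) and was also 0.77 without DKO 2. SWSAP1, of the homologous recombination machinery, behaved alike with 3.76 and 4.70 against 2.02 and 2.40, and 3.90 and 3.16 in vector. IGFN1 had 2.47 and 5.34 against 1.62 and 1.46, but 12.0 in vector 2. HRNR had 0.57 and 0.58 against 0.33 and 0.30.

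Several large gaps went with the transcript length listed, which differs between libraries. The gap of MMP19 was 1.58-fold in FPKM and 1.21-fold in CPM, that of SLC2A13 1.52-fold and 1.26-fold, and that of ITFG2 1.55-fold and 1.39-fold. KMT5C had 1.47-fold and 1.36-fold. Below, CC2D2B had 1.74-fold and 1.35-fold, PPP1R9A 1.49-fold and 1.29-fold, and C11orf54 1.46-fold and 1.24-fold. All stayed on the same side in both units.

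The largest gaps below belong to readthrough genes, whose exons overlap those of their neighbours, so that the split of reads is uncertain. RPS10-NUDT3 had 0 counts in both DKO libraries against 72.9 in MRCKα KO and 98.3 in MRCKβ KO, at least 24.5-fold lower when set against 3 counts per library. The sum over RPS10-NUDT3, RPS10 and NUDT3 was 5120 and 6132 counts in DKO against 5333 and 5910. C7orf55-LUC7L2 had 1.30 and 0 counts in DKO against 50.3 and 64.8, with a sum with LUC7L2 of 1571 and 1500 against 1472 and 1484. The sums overlapped between the sides at the first locus and were slightly higher in DKO at the second.

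The pair C8orf44-SGK3 and SGK3 lay on opposite sides. C8orf44-SGK3 had 28.2 and 15.4 counts in DKO against 77.8 and 85.2, whereas SGK3, a kinase related to AKT, had 116 and 144 against 60.0 and 78.4. The sum with C8orf44 was 178 and 187 in DKO against 155.6 and 198.8 in the single knockouts, so SGK3 is uncertain as well. NME1-NME2 had 82.2 and 85.7 counts in DKO against 187 and 158, and the sum with NME1 and NME2 was 5105 and 4913 against 5081 and 4925.

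INHBB, the βB subunit of activins and inhibins, had a gap of 1.48-fold below in FPKM and in CPM. It had an FPKM of 8.79 in DKO 1 and 5.07 in DKO 2, against 13.0 in MRCKα KO and 17.4 in MRCKβ KO, and 18.2 and 7.74 in vector. Vector 2 was again close to DKO. The log2 fold change was -1.15 (standard error 0.26, edgeR adjusted p = 0.951) and -0.80 without DKO 2. COL9A2, a collagen IX chain, had 1.28 and 1.58 in DKO against 2.36 and 3.78, with 2.17 and 0.99 in vector. PSG4, of a family of near-identical pregnancy glycoprotein genes, had 3.49 and 1.26 against 5.39 and 5.58.

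KBTBD3 had 0.79 and 0.56 against 1.31 and 1.38, ANKRD34A had 1.15 and 0.73 against 1.90 and 1.85, and GRAMD1C had 1.26 and 0.82 against 2.11 and 1.82. AP3S2, an adaptor subunit for vesicle transport, had 2.32 and 2.15 against 3.57 and 3.21, but its vector values were lower still at 0.32 and 1.55.

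**Figure D5:**
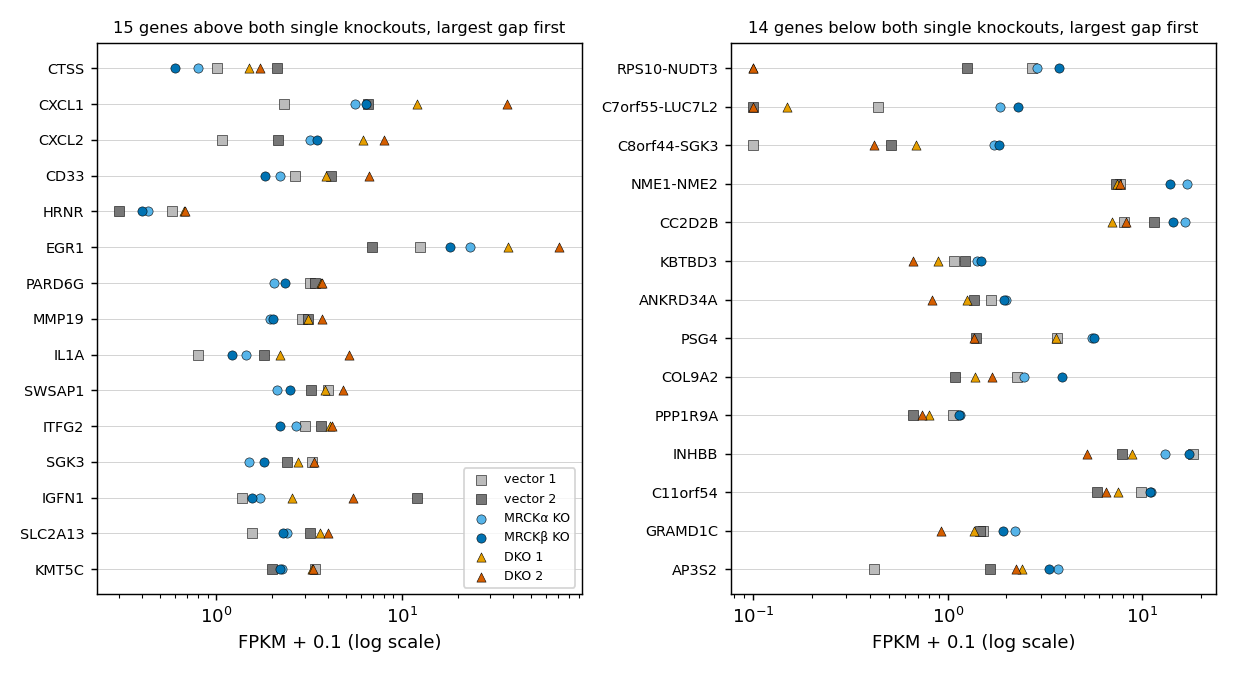
FPKM + 0.1 (log axis) in all 6 libraries for the 15 genes above (left) and 14 of the 15 below (right) both single knockouts with the largest gaps; triangles are DKO, circles single knockouts and squares vector. CTSS leads the left panel with a 2.00-fold gap and RPS10-NUDT3, at 0 in both DKO libraries, the right one.

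A further comparison asked whether DKO departed from the sum of the single knockout differences. In a fit of all 6 libraries, the log2 level of DKO minus both single knockouts plus vector was tested with edgeR. It called 0 of 13764 genes (0.0%) after adjustment, with 138 above the sum (1.0%) and 97 below it (0.705%) at an unadjusted p under 0.05, together 1.71%, and DESeq2 called 1, the readthrough gene RPS10-NUDT3. The estimates were wide. The departure was 1.61 for CXCL1 (standard error 1.17), 0.31 for EGR1 (standard error 0.64) and -0.13 for ICAM1 (standard error 0.29). At errors of this size the departures were not measured precisely.

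The genes given for this comparison were picked for DKO values beyond both single knockouts, or after their values were seen. The departure reuses those values, so its direction was favoured by the choice and is not independent evidence. PARD6G had a departure of 1.41 (standard error 0.37), CTSS of 2.62 (standard error 0.86) and IL1B of 2.21 (standard error 0.72). In PARD6G both single knockouts were below vector and the DKO values were close to it, as given above. For the cholesterol gene SQLE the departure was -0.80 (standard error 0.46), and for INHBB -1.33 (standard error 0.72). The adjusted p from edgeR was 1.00 for each of these genes.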

How the data were processed

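RNA of 4 knockout libraries (DKO 1, DKO 2, MRCKα KO, MRCKβ KO) and 2 vector control libraries was read single-end at BGI. The authors deposited an expected count (an estimated, unnormalized read number per gene) and an FPKM value, rounded to 2 decimals, for each gene and library. The submitters' processing notes name HISAT, Bowtie2, RSEM and GRCh38.p11, without their roles, and tool versions are not given in the sources used here. A gene's listed transcript length differs between libraries, which moves FPKM but not counts.

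Samples were grouped by genotype labels. Genes with 50 or more expected counts in both libraries of a side were kept, and a gene was above or below when both DKO FPKM values lay strictly beyond both single knockouts. The study gives no test for this comparison. Expected counts were rounded, filtered with filterByExpr and normalized by TMM, and edgeR 4.0.16 (quasi-likelihood, R 4.3.3) was run on 2 libraries a side, without a block, with Benjamini-Hochberg adjustment over all genes and a threshold of 0.05. Departure from additive log2 effects was fitted to all 6 libraries, assuming that the single knockouts vary like the other groups. The scripts were tested on simulated data. Alternatives were DESeq2 1.42.0, limma 3.58.1 on log2 of FPKM with 0.1 or 1 added, other normalizations and filters, a replicate block and each library left out.

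Members and gene lists were chosen with earlier results of these data known. The text draws its genes from a rule, without naming all of them. The rule takes the targeted genes, the 15 largest gaps on each side, the 3 largest in each of 14 lists and all genes of the MRCK and ROCK list. Other genes, which were chosen after their values were seen, are the genes called by DESeq2, the NF-κB genes other than CXCL1, CXCL2 and IL1A, the neighbours of readthrough genes, JUN, IER5, ATF3, FOSB, NR4A1, DUSP1 and PMVK. Of the genes below that the rule selects, 1 is not reported here. Promoters are RefSeq windows on GRCh38.p14, matched by symbol. With totals from 10349898 to 10657857 and no molecular identifiers, depth limits genes of few counts, and a count of 0 allows up to 3 counts.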

Additional observations from a re-analysis of the deposited data

How the results depend on the processing

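The log2 fold change of 70 named genes kept its direction in DESeq2, with all 6 libraries fitted and with each knockout library left out. These genes were picked with both DKO values beyond both single knockouts. That choice largely fixed the direction beforehand, so its stability is not independent evidence. DESeq2 brought 4 of them past an adjusted p of 0.05, leaving out DKO 1 brought 18 and leaving out DKO 2 brought 4. The number of genes called between DKO and the single knockouts, 0 with edgeR, was 7 with DESeq2 (4 higher, 3 lower), 2 with the 50-count filter, 1 with limma on log2(FPKM + 0.1) and 0 with limma on log2(FPKM + 1), other normalizations, no filter or all 6 libraries. With 1 library left out it ranged from 0 to 377. It was 377 without DKO 1 (95 higher, 282 lower) and 17 without DKO 2 (8 higher, 9 lower), where the spread comes from the single knockout pair alone and the lone library is assumed to vary like it. It was 0 without either single knockout, where the spread comes from the DKO pair. For the departure from additivity DESeq2 called 1 gene, and the count was 0 under the other alternatives, including DKO 1, DKO 2, vector 1 or vector 2 left out.

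Of the number pairs only DKO and vector share both numbers. With the replicate number as a block in the fit of all 6 libraries, both tests called 0 genes. The difference DKO 2 minus DKO 1 correlated with vector 2 minus vector 1 at r = 0.425 across 11001 genes, which are not independent replicates, and neither labels nor methods tie the numbers to a batch.

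The count of genes above, 2102, was 1635 to 2296 and that below, 1685, was 1293 to 1879 under CPM and other count minimums. The other count minimums kept 8300 to 12136 genes, of which 18.9% to 19.7% were above and 15.1% to 15.6% below. In CPM the shares of the 11001 genes were 17.7% and 17.1%. A gap of at least 25% left 95 above and 51 below, and one of at least 50% left 14 and 8. Leaving out 1 library gave 3366 to 4319 above and 3020 to 3826 below, since fewer values then have to be separated. Counted after seeing the data, DKO 1 alone gave 3294 and 3019, and DKO 2 alone 4204 and 3608. With 2 libraries a side and 1 per single knockout, the spread within each knockout is not measured, and MRCKα KO and MRCKβ KO differences count as error.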
